A study of Mus musculus with 18 samples.

Results

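The genes described here copy the chromosomes and divide the cell. They were listed by symbol, 44 in all, and each was read from the probe set that names that gene alone and has the highest mean over all arrays, a probe set being the group of probes that the array uses for a transcript. Of the 44 genes, 43 were found in this way among the 19938 genes that have such a probe set. Ccnb1, the gene of cyclin B1, had no probe set that named it in the annotation used and was left out.

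Levels of these genes were compared in the adipocytes of a pair of fat depots of male C57BL/6J mice, bone marrow and epididymal, at 6, 14 and 18 months of age on standard chow. The sample labels call the second depot peripheral and the study's methods call it epididymal. Floating cells were taken from marrow flushed out of femurs and tibias after lysis of red cells, and from epididymal fat after collagenase digestion, and they were not sorted. Each of the 6 groups had 3 arrays of pooled RNA, the pools of a group came from 6 to 10 animals, and both depots came from the same mice, so the error is that between pools. Values are levels on the log2 scale as deposited, on which a difference of 1 is a 2-fold difference. In bulk RNA of this kind, fewer cells of a type and less RNA per cell cannot be told apart.

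A dividing cell passes through a fixed order of steps. Before DNA is copied, the proteins CDC6 and CDT1 load a ring of MCM proteins onto replication origins, the GINS proteins join the rings to make the active helicase, and PCNA clamps the polymerase to the DNA, while ribonucleotide reductase, thymidylate synthase and thymidine kinase supply the building blocks. Cyclin E starts this phase, cyclin A runs through it, and cyclin B with CDK1 starts mitosis, in which the Aurora and Polo kinases, the kinetochore proteins and the kinesin motors attach and move the chromosomes. The spindle checkpoint holds the cell until all chromosomes are attached, and then the anaphase-promoting complex with CDC20 and UBE2C marks cyclins for destruction. Mature white adipocytes are held to be post-mitotic cells, whereas bone marrow holds the dividing precursors of blood cells.

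In mammals many genes of the replication step carry E2F sites near their start, and many genes of mitosis carry a CHR, the cell cycle genes homology region, downstream of CCAAT boxes, which NF-Y binds. Promoters of 300 bases, from 250 before to 50 after the start, were taken from RefSeq (build GRCm38.p6), and 36 promoters matched 34 of the 43 genes. The letters searched on both strands were TTTGAA and TTCGAA for the CHR, CCAAT for the CCAAT box, and TTTGGCGC, TTTCGCGC, TTTCCCGC and TTTGCCGC for the E2F site. TTCGAA reads the same on both strands, and E2F matches on opposite strands may overlap, as they do in Mcm5 and Mcm6.

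Windows of 200 bases, from 180 before to 20 after the start, are printed for 4 genes that start or end mitosis and were lower in bone marrow at 14 than at 6 months, and for 2 genes of the MCM ring that hold E2F matches. They were chosen with their matches known. Capitals mark the matches, of either strand. They lie at chr10:69352893-69353092 on the minus strand for Cdk1, chr9:70421535-70421734 on the minus strand for Ccnb2, chr4:118437324-118437523 on the minus strand for Cdc20 and chr2:164769749-164769948 on the plus strand for Ube2c, and at chr8:75109329-75109528 on the plus strand for Mcm5 and chr1:128359686-128359885 on the minus strand for Mcm6.
Cdk1: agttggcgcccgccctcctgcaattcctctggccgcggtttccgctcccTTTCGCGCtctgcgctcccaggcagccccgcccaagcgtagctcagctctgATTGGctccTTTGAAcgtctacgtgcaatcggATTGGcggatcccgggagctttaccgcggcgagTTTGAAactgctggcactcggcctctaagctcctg
Ccnb2: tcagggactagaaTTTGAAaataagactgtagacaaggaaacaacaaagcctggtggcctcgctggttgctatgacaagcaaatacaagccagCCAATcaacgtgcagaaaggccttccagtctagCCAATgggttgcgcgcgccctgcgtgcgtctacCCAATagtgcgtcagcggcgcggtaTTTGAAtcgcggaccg
Cdc20: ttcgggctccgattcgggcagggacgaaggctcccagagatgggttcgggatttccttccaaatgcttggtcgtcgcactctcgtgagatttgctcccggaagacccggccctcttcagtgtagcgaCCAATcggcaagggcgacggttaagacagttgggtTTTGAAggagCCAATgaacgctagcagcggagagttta
Ube2c: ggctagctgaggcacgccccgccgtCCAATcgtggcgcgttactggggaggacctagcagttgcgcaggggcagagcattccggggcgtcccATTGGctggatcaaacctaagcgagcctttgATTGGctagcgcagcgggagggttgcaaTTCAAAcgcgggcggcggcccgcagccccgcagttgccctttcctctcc
Mcm5: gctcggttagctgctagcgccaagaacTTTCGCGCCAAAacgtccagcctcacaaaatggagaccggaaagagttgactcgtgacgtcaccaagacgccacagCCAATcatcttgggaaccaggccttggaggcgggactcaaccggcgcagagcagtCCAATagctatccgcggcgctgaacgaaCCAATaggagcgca
Mcm6: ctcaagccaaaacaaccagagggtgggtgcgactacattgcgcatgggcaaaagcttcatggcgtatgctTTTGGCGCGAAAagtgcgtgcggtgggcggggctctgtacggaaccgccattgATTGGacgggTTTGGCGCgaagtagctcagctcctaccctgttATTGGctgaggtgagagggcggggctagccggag

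These 6 windows all held CCAAT boxes. With the first transcribed base as position 0, the CHR nearest the start began at position -15 in Cdk1, 4 in Ccnb2, -18 in Cdc20 and -29 in Ube2c, and the windows of Mcm5 and Mcm6 held none. The Cdk1 window held an E2F match too. Some other members were less regular: the same windows of Cdt1 and Cdc6 held no CCAAT, while the promoters of Mcm2 and Mcm7 held a CHR. The window of Plk1 held no CHR and those of Mcm3 and Cdt1 no E2F match, but only because the window ended too early. In the longer promoters searched, the CHR of Plk1 began at position 30. The E2F matches began at positions 19 and 38 in Mcm3 and at 32 in Cdt1. These sites are counted in the shares that follow. A CHR was found in 14 of 18 promoters (77.8%) of genes of mitosis (kinases, checkpoint, centromere, motors and anaphase-promoting complex), in 2 of 13 (15.4%) of genes of replication and nucleotide supply, and in 19.2% of the 32851 promoters of the table. CCAAT stood in 15 of the 18 (83.3%), in 9 of the 13 (69.2%) and in 37.4% of all promoters. An E2F match stood in 0 of the 18, in 6 of the 13 (46.2%) and in 2.26% of all promoters. Cyclin genes, Cdk1, Foxm1 and the proliferation markers are in neither group. Of 3 promoters of the cyclin, Cdk1 and Foxm1 genes, 1 held an E2F match, that of Cdk1. These matches describe letters and were not tested.

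**Figure D1:**
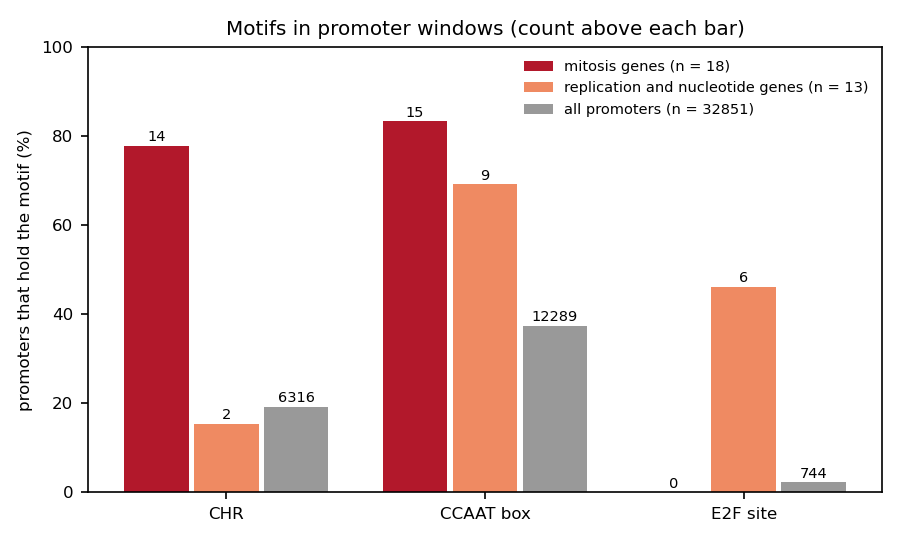
Share (%) of 300-base promoters that hold each motif, for 18 promoters of mitosis genes, 13 promoters of replication and nucleotide genes, and all 32851 promoters; the number of promoters with the motif is written above each bar. The CHR bar is highest for the mitosis genes (77.8%) and the E2F bar for the replication genes (46.2%). Cyclin genes, Cdk1, Foxm1 and the proliferation markers are in neither gene group.

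Certain arrays stood apart from the others of their group in these genes. In epididymal adipocytes the first 14-month replicate was the highest of its group for 30 genes. In bone marrow the second 18-month replicate was the highest of its group for 29 genes and the first 14-month replicate for 25. The first replicate of 6-month epididymal adipocytes was the highest of its 3 arrays for 39 of the 43 genes, with a mean over the genes of 6.26 against 5.58 and 5.55. Its 8 mature neutrophil markers averaged 8.90 against 5.36 and 5.11, and its 9 erythroid markers 7.24 against 5.95 and 6.07. The part of these cells in its levels of the division genes was not tested. In 6-month bone marrow the first replicate was the highest of its group for 16 genes, such as Ccnb2 (11.41 against 10.10 and 9.85). It was the lowest for 16, among them Cdc6 of replication (7.60 against 8.23 and 9.03) and Tpx2 of mitosis (8.73 against 9.43 and 9.84). The median standard deviation of the 43 genes between arrays at 6, 14 and 18 months came to 0.28, 0.13 and 0.16 for bone marrow and to 0.35, 0.22 and 0.13 for epididymal adipocytes.

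The defining genes of fat cells were far lower in the marrow preparations than in epididymal adipocytes, which goes against a label that names both as adipocytes, so the first are called bone marrow preparations below. The study reported that both preparations stained for neutral lipid and perilipin, with similar shares of cells positive for the monocyte marker CD11b. By RT-PCR it found Fabp4, Plin1, leptin and adiponectin higher in floating than in non-floating marrow cells, though lower than in epididymal adipocytes. The 9 adipocyte markers, among them Adipoq, Plin1 and Lep, averaged from 6.50 to 7.32 on the bone marrow arrays and from 12.13 to 12.59 on the epididymal arrays, and all 9 were lower in bone marrow (median log2 fold change -5.16). Lep, the gene of the fat cell hormone leptin, averaged 5.04, 4.37 and 4.05 in bone marrow at 6, 14 and 18 months and 12.80, 12.81 and 12.96 in epididymal adipocytes. All 6 neutrophil precursor markers (median 4.93), all 8 mature neutrophil markers (6.05) and all 9 erythroid markers (4.31) were higher in bone marrow, as were 8 of 11 B-cell precursor markers, with 1 lower. Of the stem and progenitor markers Kit (1.77), Flt3 (1.63) and Gata2 (1.55) were higher, Cd34 (-1.73) was lower, and Meis1 (-0.87) missed the fold limit. Of the macrophage markers Adgre1, Csf1r, Cd68, C1qb and C1qc were higher, and C1qa (0.93), Mrc1 (0.62) and Cd163 (-0.72) missed that limit. The part of blood precursors in the levels of the 43 genes given below was not tested.

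The replication and mitosis genes were higher in bone marrow than in epididymal adipocytes almost throughout. Over the 3 ages, 42 of the 43 genes passed both limits set for a depot difference, a 2-fold higher level in bone marrow and an adjusted p under 0.05 (limma, Benjamini-Hochberg over 23410 probe sets), beside 10.2% of all probe sets. The median log2 fold change, a difference of measured levels, was 3.35, and that of all probe sets was -0.02. For all 43 genes the lowest of the 9 bone marrow arrays lay above the highest of the 9 epididymal arrays, which was so for 12.4% of all probe sets. When the arrays were scaled to equal levels of 61 ribosomal protein genes, the median of all probe sets moved to -0.69 and 42 genes still passed. No detection calls were used here, and many of the epididymal levels lay near the array medians of 5.33 to 5.65, so such levels cannot be told apart from background. The fold changes over them, here and in the paragraphs on single genes, are those of the measured values, and their order among genes is not read.

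**Figure D2:**
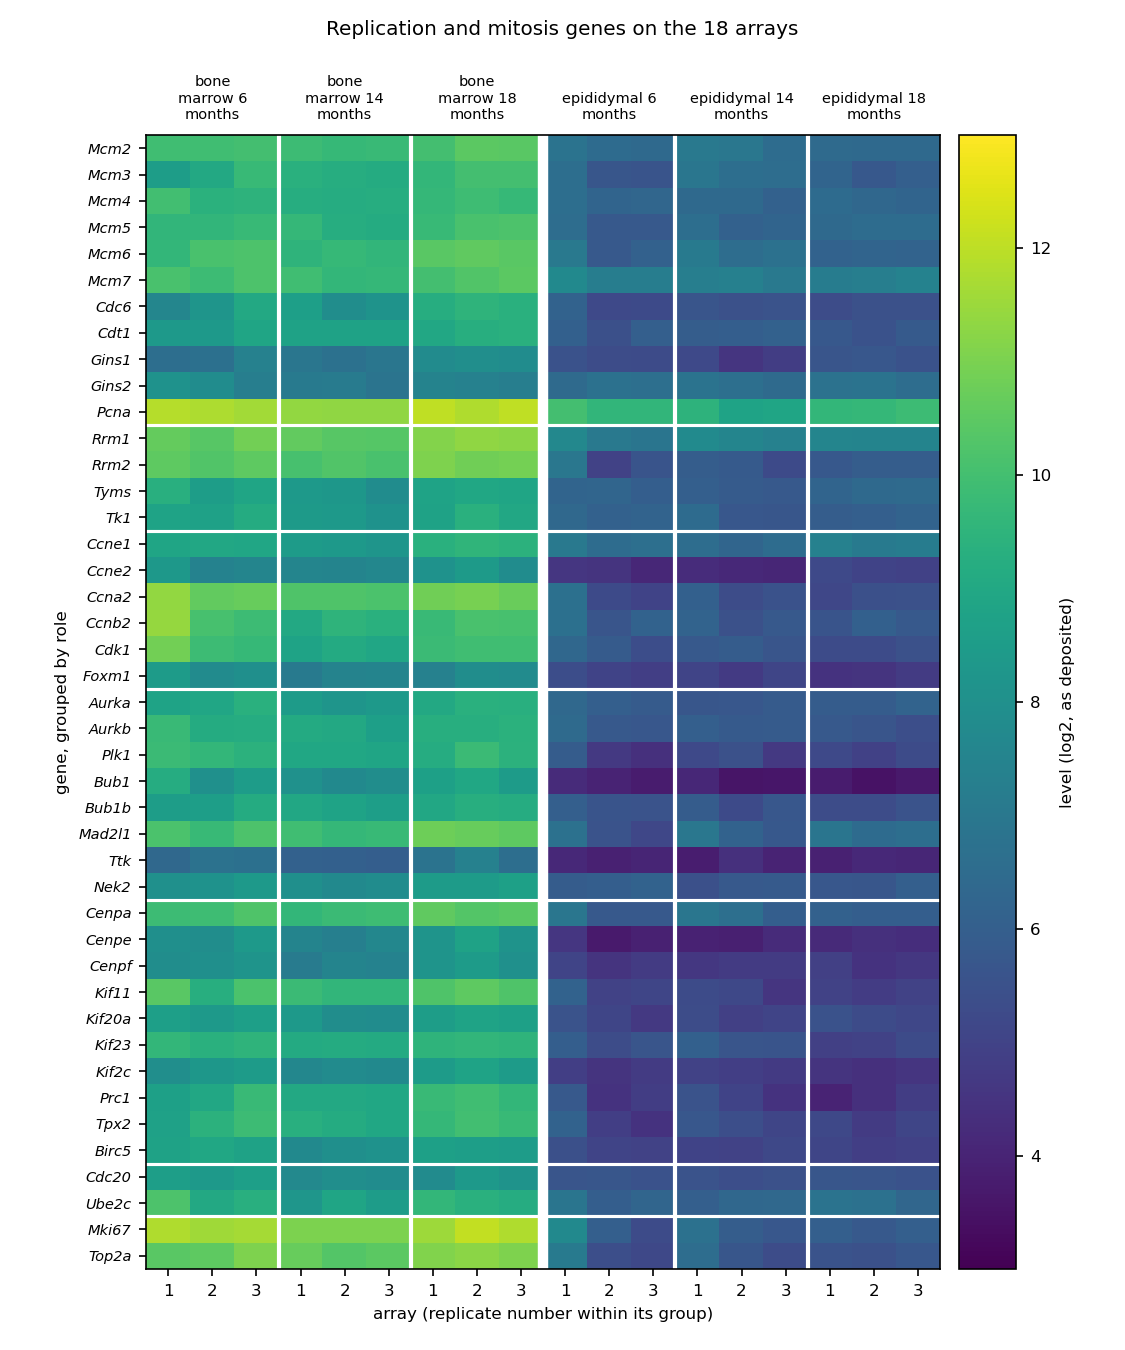
Level (log2, color) of the 43 genes (rows, grouped by role) on the 18 arrays (columns, 3 for each depot and age). The bone marrow columns lie above the epididymal columns in every row, and the contrast is weakest for Gins2 (log2 fold change 0.74).

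The proliferation marker genes differed by 5.37 (Mki67) and 4.99 (Top2a) on the log2 scale. Mki67, the gene of the proliferation antigen Ki-67, ran from 11.03 to 12.08 on the bone marrow arrays (median 11.58) and from 5.298 to 7.73 on the epididymal arrays (median 6.01). Its log2 fold change was 5.37 (SE 0.22, adjusted p = 5.62e-14). Top2a, whose enzyme untangles copied DNA, ran from 10.34 to 11.26 in bone marrow and from 5.15 to 7.07 in epididymal adipocytes. For Top2a the log2 fold change was 4.99 (SE 0.21), but another probe set of the gene, with means of 3.24 in bone marrow and 2.82 in epididymal adipocytes, gave 0.42 (adjusted p = 0.00572). Those 2 means lay below the array medians of 5.33 to 5.65 and cannot be told apart from background. Which probe set measures the gene better was not tested.

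Of 11 genes of the replication origin and fork, 10 were higher in bone marrow (median 3.12 on the log2 scale). The MCM genes, whose proteins form the helicase ring, differed by 2.71 (Mcm7) to 3.59 (Mcm6). Mcm2 had levels of 9.93, 9.94 and 10.01 at 6 months, 9.84, 9.70 and 9.78 at 14 months and 10.03, 10.48 and 10.45 at 18 months in bone marrow, against 6.79, 6.49 and 6.41, then 7.03, 6.97 and 6.54, then 6.46, 6.43 and 6.40 in epididymal adipocytes. No bone marrow array came within 2.67 of an epididymal one, and the log2 fold change was 3.40 (SE 0.08, adjusted p = 2.21e-17). The licensing genes Cdc6 and Cdt1 had log2 fold changes of 3.12 (SE 0.16) and 2.98 (SE 0.10). Pcna, the sliding clamp, ran from 11.35 to 12.06 in bone marrow and from 8.81 to 10.00 in epididymal adipocytes, and its log2 fold change was 2.20 (SE 0.09, adjusted p = 5.84e-14), with 2.21 from another probe set. The GINS genes, of the active helicase, had smaller measured differences. Gins1 had 1.93 (SE 0.10, adjusted p = 2.52e-12), and Gins2 had 0.74 (SE 0.10, adjusted p = 1.38e-06), which passed the p limit but not the fold limit. Gins2 ran from 6.85 to 8.09 in bone marrow and from 6.44 to 6.80 in epididymal adipocytes, so that the depots were 0.05 apart at the nearest arrays.

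All 4 genes of nucleotide supply were higher in bone marrow. Rrm1 and Rrm2, the large and the small subunit of ribonucleotide reductase, had log2 fold changes of 3.35 (SE 0.10, adjusted p = 2.82e-16) and 4.70 (SE 0.18, adjusted p = 1.83e-14). Rrm2 ran from 10.10 to 11.06 in bone marrow and from 4.98 to 6.98 in epididymal adipocytes. Tyms (thymidylate synthase) had 2.51 and Tk1 (thymidine kinase) 2.67, with 2.52 from another probe set of Tk1.

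The 6 genes of cyclins, Cdk1 and Foxm1 were all higher in bone marrow (median 3.64). Differences were 5.10 (SE 0.18, adjusted p = 5.17e-15) for Ccna2, cyclin A, and 3.99 (SE 0.18) for Ccnb2, a mitotic B cyclin. The E cyclins of the G1 to S step differed by 2.10 (SE 0.08) for Ccne1 and 3.29 (SE 0.11) for Ccne2. Cdk1, the kinase that starts mitosis, had levels of 10.89, 9.85 and 9.69 at 6 months, 8.82, 9.12 and 8.91 at 14 months and 9.82, 9.94 and 9.95 at 18 months in bone marrow, against 6.34, 5.88 and 5.37, then 5.81, 5.90 and 5.63, then 5.29, 5.295 and 5.49 in epididymal adipocytes. The bone marrow arrays thus lay high at 6 and 18 months and lower at 14 months, and none overlapped an epididymal array. Its log2 fold change between depots was 3.997 (SE 0.14, adjusted p = 5.23e-15). Foxm1, a transcription factor of mitotic genes, had 2.86 (SE 0.11).

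**Figure D3:**
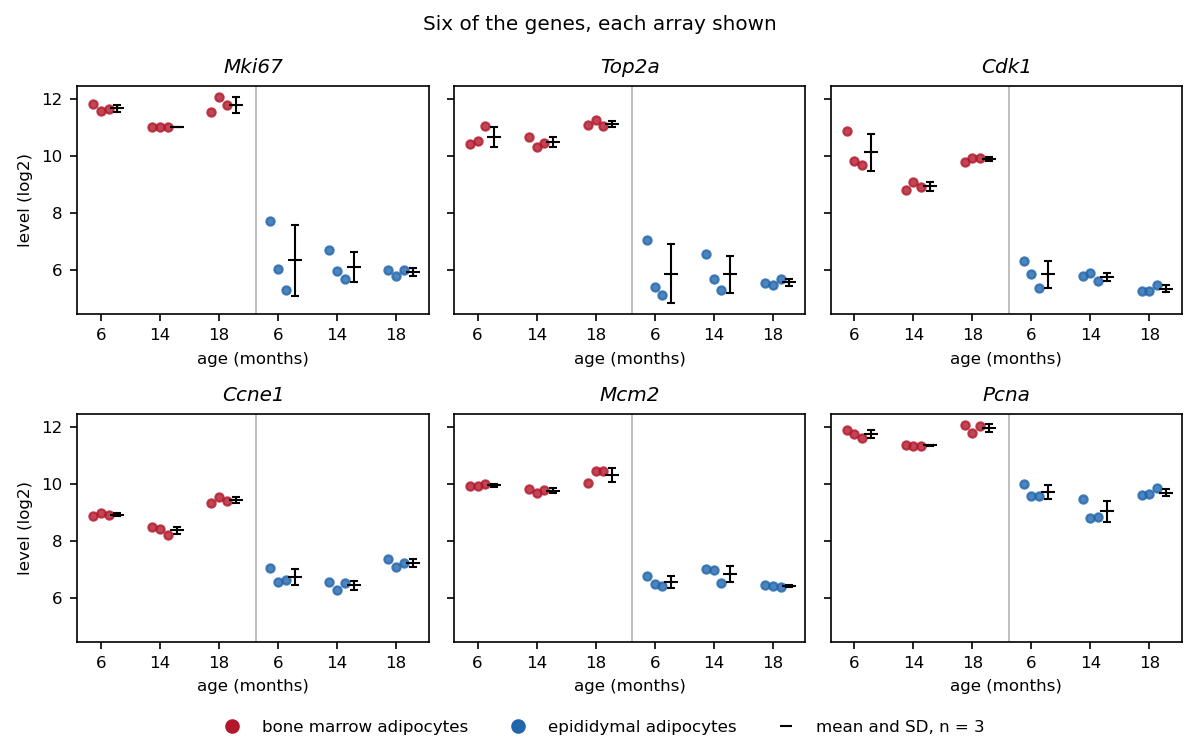
Level (log2) of Mki67, Top2a, Cdk1, Ccne1, Mcm2 and Pcna on each array by age (months) and depot, with the mean and standard deviation of the 3 arrays beside the points. Cdk1 in bone marrow averaged 10.14, 8.95 and 9.90 at 6, 14 and 18 months, and every bone marrow point lies above every epididymal point.

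All 8 mitotic kinase and checkpoint genes were higher in bone marrow, from 2.36 for Nek2, a kinase of the centrosome, to 4.59 for Bub1, a kinase of the spindle checkpoint (SE 0.13, adjusted p = 2.32e-16). Bub1 ran from 7.73 to 9.21 on the bone marrow arrays and from 3.49 to 4.22 on the epididymal arrays, where it lay below the array medians. Plk1, the Polo kinase, had a log2 fold change of 4.26 (SE 0.16). The Aurora kinase genes Aurka and Aurkb had 2.93 (SE 0.09) and 3.37 (SE 0.11). Bub1b and Mad2l1, which hold back anaphase, had 3.32 (SE 0.11) and 3.91 (SE 0.18), and Ttk, the kinase upstream in that checkpoint, had 2.49 (SE 0.10).

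The 10 genes of centromere, motors and spindle were all higher, with a median of 3.84. Kif11, the motor that pushes the spindle poles apart, had 4.88 (SE 0.16, adjusted p = 2.33e-15), with 9.29 to 10.52 in bone marrow and 4.53 to 6.16 in epididymal adipocytes. Prc1, which bundles the central spindle, had 4.503 (SE 0.18), and Tpx2, which activates Aurora A on the spindle, had 4.23 (SE 0.19). The other motor genes Kif20a, Kif23 and Kif2c had 3.26, 3.90 and 3.51. Cenpa, the histone of the centromere, had 3.84 (SE 0.14), Cenpe, a kinetochore motor, 3.85, and Cenpf, a large kinetochore protein, 3.15. Birc5, survivin of the chromosomal passenger complex, had 3.40 (SE 0.08, adjusted p = 6.82e-18). Of the anaphase-promoting complex, its activator Cdc20 had 2.60 (SE 0.07) and its ubiquitin-conjugating enzyme Ube2c 2.73 (SE 0.15).

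The depot difference held at each age. At 6 months 43 of 43 genes were higher in bone marrow (median log2 fold change 3.39), beside 11.4% of all probe sets. At 14 months 42 were higher (median 2.92), beside 9.91% of all probe sets, and at 18 months 42 were higher (median 3.73), beside 10.9%. The exception at the older ages was Gins2, at 0.40 (SE 0.17, adjusted p = 0.0559) and 0.68 (SE 0.17, adjusted p = 0.00203). Its difference at 6 months was 1.13 (SE 0.17, adjusted p = 1.06e-05), and it was 0.95, under the fold limit, without the first replicate of 6-month bone marrow.

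Within the bone marrow preparations the mean over the genes was lowest at 14 months. Averaged over the 43 genes, the 3 arrays had 9.29, 9.08 and 9.33 at 6 months, 8.83, 8.79 and 8.75 at 14 months and 9.38, 9.60 and 9.45 at 18 months. Of the 3 ages, 14 months had the lowest mean for 40 of 43 genes (31.9% of all probe sets), and 18 months had the highest for 32 and 6 months for 11. In epididymal adipocytes the lowest mean fell at 6, 14 and 18 months for 7, 15 and 21 genes.

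At 14 against 6 months in bone marrow, 12 of 43 genes fell and 0 rose, beside 3.58% of all probe sets that fell. The median log2 change was -0.42 (all probe sets -0.02), 40 of 43 changes were negative, and for 25 genes every 14-month array lay below every 6-month array, as it did for 10.0% of all probe sets. By role, 4 of 6 cyclin, Cdk1 and Foxm1 genes fell, both genes of the anaphase-promoting complex, 3 of 10 of centromere, motors and spindle, 1 of 8 kinase and checkpoint genes, 1 of 11 of the origin and fork and 1 of 4 of nucleotide supply. At an unadjusted p under 0.05 the limma fit gave 23 falls and 0 rises, where 21.8% of all probe sets passed in either direction. Cdk1 had 8.82, 9.12 and 8.91 at 14 months and 10.89, 9.85 and 9.69 at 6 months, and it fell by 1.19 (SE 0.245, adjusted p = 0.00481). Its change was -0.82 (adjusted p = 0.0123) without the first 6-month array, which is the highest of the 6. Ccnb2 had 9.02, 9.51 and 9.34 at 14 months and 11.41, 10.10 and 9.85 at 6 months, a change of -1.16 (SE 0.315, adjusted p = 0.0264). Ube2c had 8.25, 8.89 and 8.54 at 14 months and 10.20, 9.03 and 9.29 at 6 months, a change of -0.95 (SE 0.26, adjusted p = 0.0301). Neither change passed without the first 6-month array, where Ccnb2 had -0.68 (adjusted p = 0.103) and Ube2c -0.60 (adjusted p = 0.128).

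Birc5 and Cdc20 fell more evenly. Birc5 had 7.75, 7.98 and 8.09 at 14 months and 8.78, 8.97 and 8.74 at 6 months, and it fell by 0.89 (SE 0.13, adjusted p = 3.51e-04). Cdc20 had 7.72, 7.96 and 7.87 at 14 months and 8.61, 8.36 and 8.63 at 6 months, and it fell by 0.68 (SE 0.13, adjusted p = 0.00230). In both genes the 3 arrays of each age kept to a band narrower than the gap between the ages' means. The others that fell were Foxm1 (-0.76), Cenpf (-0.65), Aurka (-0.65) and Kif2c (-0.51) of mitosis, Ccne1 (-0.56), and Tyms (-0.73) and Gins2 (-0.69) of replication. The MCM genes, Cdc6, Cdt1, Pcna and Rrm1 did not pass, with changes from -0.42 for Pcna to 0.23 for Cdt1. Of the 12 calls, 3 (Cdk1, Birc5 and Cdc20) passed whichever array was left out, 6 genes fell without the third 14-month bone marrow array, and 1 gene fell when the fit held only the compared groups.

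From 14 months on the direction was the opposite, and at 18 against 14 months 23 of 43 genes rose and 0 fell, beside 4.75% of all probe sets that rose. At an unadjusted p under 0.05 there were 33 rises and 0 falls, where 23.9% of all probe sets passed in either direction. All 43 changes were positive, with a median of 0.69, or 1.61-fold (all probe sets -0.03), and for 40 genes every 18-month array lay above every 14-month array, as it did for 12.6% of all probe sets. Genes of replication and of mitosis rose side by side, with 8 of 11 genes of the origin and fork, 3 of 4 of nucleotide supply, 2 of 6 cyclin, Cdk1 and Foxm1 genes, 4 of 8 kinase and checkpoint genes, 5 of 10 of centromere, motors and spindle and 1 of the 2 of the anaphase-promoting complex. The largest rise was that of Cdc6, the origin licensing gene, with 9.22, 9.49 and 9.36 at 18 months and 8.65, 7.91 and 8.14 at 14 months, a change of 1.12 (SE 0.28, adjusted p = 0.0111). Without the second 14-month array it was 0.96 (adjusted p = 0.0624). Ccne1 had 9.35, 9.54 and 9.42 at 18 months and 8.48, 8.42 and 8.23 at 14 months, a rise of 1.06 (SE 0.13, adjusted p = 5.36e-05). Gins1 had 7.83, 7.93 and 7.85 at 18 months and 6.94, 6.75 and 6.94 at 14 months, a rise of 0.99 (SE 0.18, adjusted p = 0.00101). In all of these genes the ages did not overlap.

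Cdk1 rose by 0.95 (SE 0.245, adjusted p = 0.0133) between 14 and 18 months, and by 0.89 (adjusted p = 0.0523) without the first 14-month array. Of the kinases and kinetochore genes, Ttk rose by 0.88, Cenpf by 0.88, Cenpe by 0.88, Aurka by 0.86 and Bub1 by 0.81, and the motor gene Kif2c rose by 0.86 (SE 0.14, adjusted p = 5.14e-04). Of the helicase genes, Mcm6 rose by 0.88, Mcm5 by 0.69 and Mcm2, Mcm4 and Mcm7 by 0.52 to 0.55. Mki67 and Top2a did not pass in the fit of all groups, with changes of 0.77 (SE 0.39, adjusted p = 0.240) and 0.65 (SE 0.36, adjusted p = 0.307). That fit shares 1 spread among the groups, and the standard deviation of Mki67 was 0.27 at 18 months and 0.0073 at 14 months in bone marrow but 1.25 in 6-month epididymal adipocytes. In the fit of the compared groups alone both rose (adjusted p = 0.00321 for Mki67 and 0.00451 for Top2a), and Mki67 also rose without the first 6-month epididymal array (adjusted p = 0.0249). The call for Tk1 (0.72, adjusted p = 0.0202) was not shared by its other probe set (0.39, adjusted p = 0.395). Of the 23 genes, 10 passed whichever array was left out (Gins1, Rrm1, Ccne1, Aurka, Ttk, Nek2, Cenpe, Cenpf, Kif2c and Birc5). There were 13 rises without the third 14-month array of bone marrow and 14 without the second 18-month array, but 38 when the fit held only the compared groups and 37 without the first replicates of both 6-month groups. The share of all probe sets that rose in those fits was not counted. Whether the changes in count are particular to these genes was therefore not tested.

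**Figure D4:**
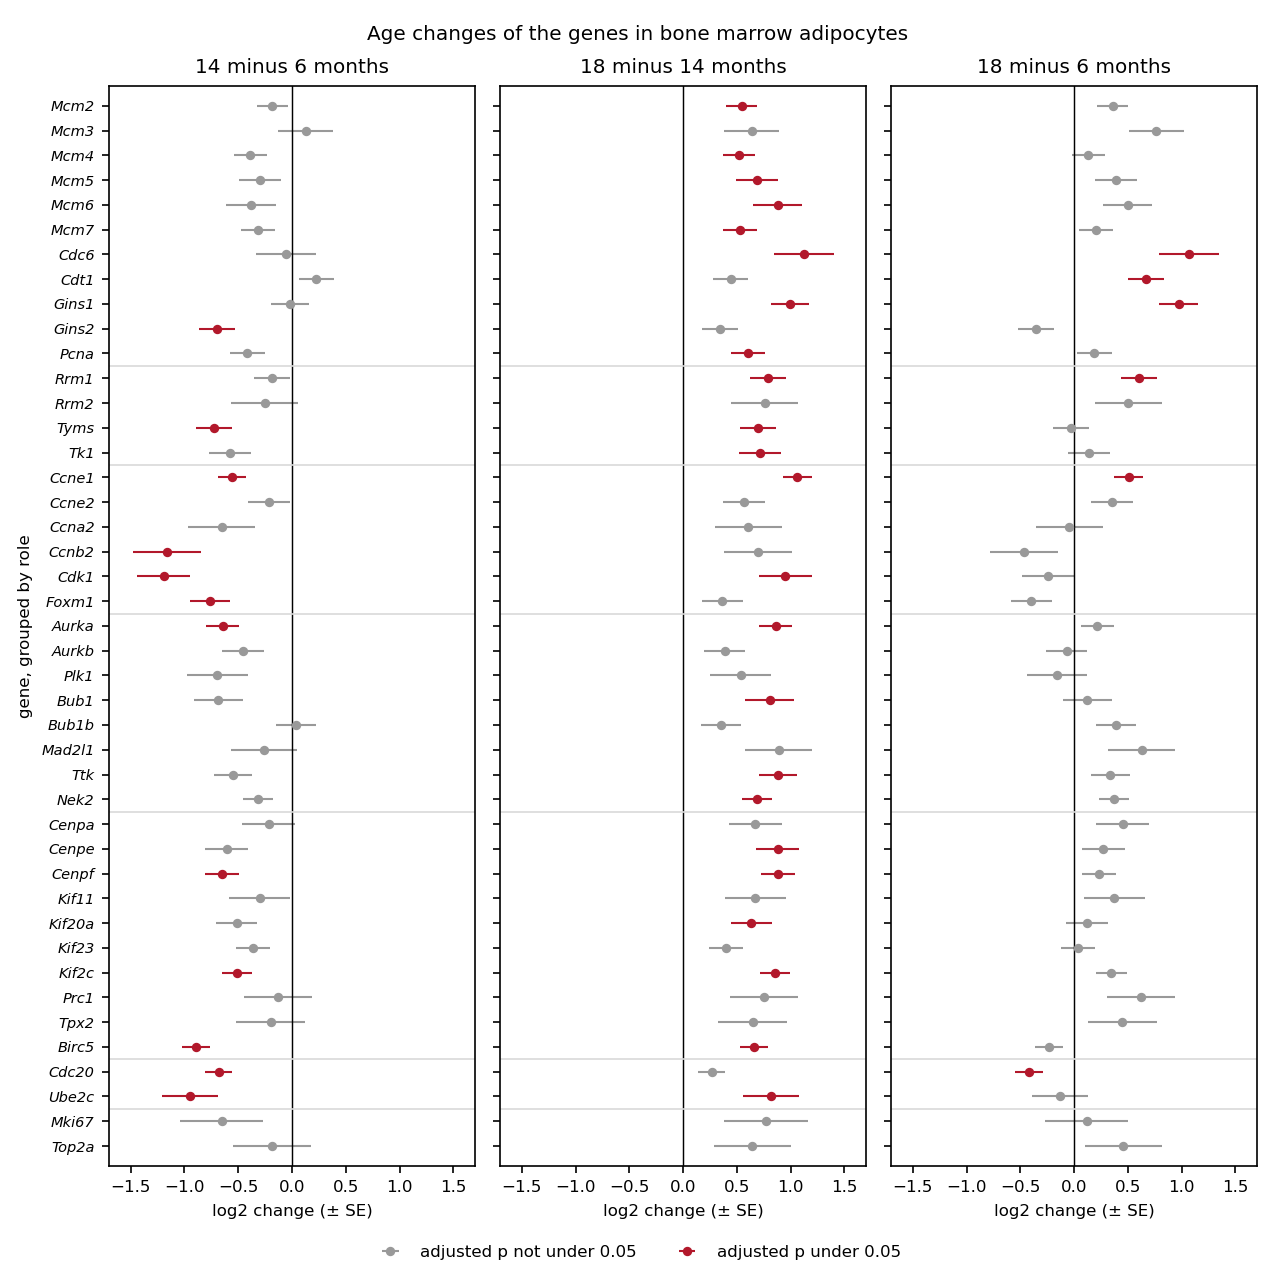
Log2 change (± standard error) of each of the 43 genes in the bone marrow preparations for 14 minus 6, 18 minus 14 and 18 minus 6 months, in red where the adjusted p was under 0.05 and in grey otherwise. The middle panel has all 43 points to the right of 0, with a median of 0.69, and the left panel has 40 to the left of it.

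The 14-month arrays enter both comparisons, so a low value there makes a fall and then a rise, and no test of their overlap is given. Of the 12 genes that fell at 14 months, 8 were among the 23 that rose at 18 months (66.7% of the genes that fell and 34.8% of those that rose), and they were Tyms, Ccne1, Cdk1, Aurka, Cenpf, Kif2c, Birc5 and Ube2c.

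Across the whole span, at 18 against 6 months in bone marrow, 5 genes rose (3.37% of all probe sets rose) and 1 fell (5.13% of all probe sets fell), and the median change was 0.27. The genes that rose were Cdc6, Cdt1 and Gins1 of the origin and fork, Rrm1 of nucleotide supply and the cyclin gene Ccne1. Cdc6 had 9.22, 9.49 and 9.36 at 18 months and 7.60, 8.23 and 9.03 at 6 months, a rise of 1.07 (SE 0.28, adjusted p = 0.0241). Gins1 rose by 0.97 (SE 0.18, adjusted p = 0.00327), Cdt1 by 0.67 (SE 0.16, adjusted p = 0.0179), Rrm1 by 0.60 (SE 0.17, adjusted p = 0.0324) and Ccne1 by 0.51 (SE 0.13, adjusted p = 0.0247). Cdc20, which acts at the end of mitosis, had 7.84, 8.38 and 8.13 at 18 months and 8.61, 8.36 and 8.63 at 6 months, ranges that overlap, and fell by 0.42 (SE 0.13, adjusted p = 0.0480). For 12 genes every 18-month array lay above every 6-month array, beside 7.23% of all probe sets. Of the 6 calls, only that of Gins1 passed whichever array was left out, and in the fit of the compared groups alone none passed. Leaving out each 6-month bone marrow array in turn gave 2, 3 and 10 calls, and leaving out each 18-month array gave 3, 2 and 1. Without the first 6-month array Cdc6 had 0.73 (adjusted p = 0.102).

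Few of the genes changed with age in epididymal adipocytes. At 14 against 6 months 1 gene fell, Pcna, and 0 rose, beside 7.51% of all probe sets that fell, and at an unadjusted p under 0.05 2 rose and 5 fell in the limma fit, where 28.5% of all probe sets passed in either direction. Pcna had 9.47, 8.81 and 8.86 at 14 months and 10.00, 9.60 and 9.58 at 6 months, and it fell by 0.68 (SE 0.16, adjusted p = 0.00492). At 18 against 6 months Ccne2 and Ccne1, the E cyclins, rose by 0.65 (SE 0.20, adjusted p = 0.0296) and 0.48 (SE 0.13, adjusted p = 0.0184), and Kif23, a motor of cell separation, fell by 0.60 (SE 0.16, adjusted p = 0.0142). That made 2 rises beside 8.22% of all probe sets and 1 fall beside 8.01%. Between 14 and 18 months 4 genes rose, Ccne2 (0.89), Ccne1 (0.78), Gins1 (0.78) and Pcna (0.66), and Kif23 (-0.72) and Mcm2 (-0.41) fell, while 11.7% of all probe sets rose and 12.5% fell.

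Ccne2 had 5.21, 5.02 and 4.93 in epididymal adipocytes at 18 months, 4.26, 4.15 and 4.07 at 14 months and 4.58, 4.49 and 4.13 at 6 months, so that the 18-month arrays did not overlap with the younger ones. All of these levels lay below the array medians of 5.33 to 5.65 and cannot be told apart from background. The share of all probe sets without such overlap was not counted. Without the first replicate of 6-month epididymal adipocytes 5 genes rose and 1 fell at 14 months, and 6 rose and 0 fell at 18 months. Of the 3 calls at 18 against 6 months, none passed under every omission of 1 array.

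Whether the age change differed between the depots was tested by the difference of the age changes, bone marrow minus epididymal. At 14 against 6 months 3 genes changed more downward in bone marrow (Cdk1, Birc5 and Kif2c), beside 6.53% of all probe sets. That count was 13 without the first replicate of 6-month epididymal adipocytes, and 1 when any 1 of 7 other arrays was left out. Cdk1, for example, changed by -1.11 more in bone marrow (SE 0.35, adjusted p = 0.0447). At 18 against 6 months only Cdt1 differed, with a change 0.82 larger in bone marrow (SE 0.23, adjusted p = 0.0363), beside 3.49% of all probe sets. The count at 18 against 6 months was 9 without the third 6-month bone marrow array and 0 when any 1 of 8 other arrays was left out.

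In the comparison of 18 with 14 months, which was added after the data were seen, 14 genes changed more upward in bone marrow and 0 less, beside 7.74% of all probe sets. The median difference was 0.71, and 41 of the 43 differences were positive. The largest were those of Mcm6 (1.48, SE 0.33, adjusted p = 0.00380), Cdk1 (1.37, SE 0.35, adjusted p = 0.00994), Prc1 (1.35, SE 0.45, adjusted p = 0.0470) and Mcm3 (1.34, SE 0.36, adjusted p = 0.0156). In Mcm6, bone marrow had 10.45, 10.54 and 10.44 at 18 months and 9.50, 9.71 and 9.59 at 14 months, and epididymal adipocytes had 6.13, 6.24 and 6.19 at 18 months and 7.10, 6.56 and 6.72 at 14 months, so the bone marrow arrays were higher at 18 months and the epididymal arrays lower, the second change not passing by itself (-0.60, adjusted p = 0.0668). Ccne2 and Pcna were the exceptions, at -0.32 and -0.05, and neither passed. The count was 9 without the first 18-month epididymal array. Markers of other cells changed in epididymal adipocytes over the same ages. At 14 against 6 months all 8 macrophage markers rose (median 2.30), as did 6 of 7 fibroblast markers (1.08), all 4 mesothelial markers (1.26), 3 of 5 endothelial markers (0.93), 4 of 5 stem and progenitor markers (0.80) and 3 of 7 T and NK cell markers (0.40). Other lists moved both ways. The neutrophil markers Ngp (-2.62), Ltf (-2.22), Mmp8 (-1.62) and Prtn3 (-1.86) fell. So did the erythroid markers Slc4a1 (-1.44), Ermap (-1.10) and Epb42 (-0.93), and the adipocyte marker Pnpla2 (-0.45). The B-cell markers Cd79a (1.97), Il7r (1.36), Cd79b (1.34) and Pax5 (0.70) and the megakaryocyte marker Pf4 (1.47) rose. The remaining markers of those lists did not pass. At 18 against 14 months all 8 macrophage markers fell (median -3.95), as did 5 of 7 fibroblast (-1.52), 4 of 4 mesothelial (-2.06), 5 of 5 endothelial (-1.62), 4 of 5 stem and progenitor (-0.86) and 5 of 7 T and NK cell markers (-0.75). The 8 macrophage markers averaged 7.81 to 7.97 on the epididymal arrays at 6 months, 10.03 to 10.44 at 14 months and 6.32 to 6.44 at 18 months. The part of these cells in the differences between depots was not tested.

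Other genes of the same steps, in lists that hold 125 genes outside the set, 121 of them on the array, were counted in the same way. Between depots 93 were higher in bone marrow and 2 lower (median log2 fold change 1.98), beside 10.2% of all probe sets that were higher and 11.6% that were lower. Of 32 further kinetochore and spindle genes, 31 were higher, up to 4.86 for Knl1, the kinetochore scaffold, and Cenpt at 0.95 missed the fold limit, and 10 of 13 condensin and cohesin genes were higher, up to 4.30 for Ncapg of condensin. Of 27 further replication fork genes, 22 were higher, up to 3.49 for Prim1, the primase, with Gins4 at -0.12 (adjusted p = 0.168). Of 14 switches around CDC25 and WEE1, 12 were higher, with Cks2, a partner of CDK1, at 4.44 and Pttg1, securin, at 0.23. Of 5 further genes of nucleotide supply or breakdown, 3 were higher, with Dck, deoxycytidine kinase, at 2.97.

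Of 6 origin recognition genes, 2 were higher in bone marrow, Orc1 at 2.05 being the highest and Orc4 at -0.46 the lowest. Of 9 G1 cyclins, kinases and pocket proteins, 4 were higher and 1 lower, with Cdk6 at 2.34 (SE 0.10, adjusted p = 1.21e-13) and Ccnd2, cyclin D2, at -2.53 (SE 0.10, adjusted p = 1.33e-14). Of 15 E2F and MYB factor genes, 9 were higher and 1 lower, with the repressor E2f8 at 4.39 and E2f6 at -1.15.

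In bone marrow at 14 against 6 months 15 of the 121 genes fell and 3 rose (median -0.24), beside 3.58% of all probe sets that fell and 5.08% that rose. Of the falls, 8 were in the kinetochore and spindle list, where Cdca8, a passenger complex gene, had -0.96 (adjusted p = 2.46e-04). Between 14 and 18 months 57 rose and 3 fell (median 0.52), beside 4.75% of all probe sets that rose and 8.23% that fell. The rises included 17 of 32 kinetochore and spindle genes, 14 of 27 fork genes, 7 of 15 E2F and MYB genes and 4 of 6 origin recognition genes. Ckap2, a microtubule protein, rose most of the spindle list (1.35), Orc1 most of the origin list (1.32) and Chek1, the replication checkpoint kinase, most of the switches (1.20). Over the span of 6 to 18 months in bone marrow 21 rose and 0 fell (median 0.29), beside 3.37% of all probe sets that rose and 5.13% that fell. In epididymal adipocytes 8 rose and 6 fell at 14 against 6 months, where 10.2% of all probe sets rose and 7.51% fell. At 18 against 6 months 16 rose and 2 fell, where 8.22% of all probe sets rose and 8.01% fell. At 18 against 14 months 19 rose and 10 fell, where 11.7% of all probe sets rose and 12.5% fell. Among the 16 rises were 5 of the 6 origin recognition genes, with Orc4 at 1.09 (adjusted p = 3.71e-05).

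Markers of blood precursors and of other cells moved in bone marrow over the same ages. The 9 erythroid markers averaged 10.26, 10.02 and 10.91 in bone marrow at 6, 14 and 18 months, and 5 of them rose and 0 fell at 18 against 14 months, with group means of 9.09 at 18 months and 8.002 at 14 months for Gata1, an erythroid transcription factor. Tfrc, the transferrin receptor, averaged 12.30 at 18 months and 11.23 at 14 months, and it is also used by dividing cells of other types. The 11 B-cell precursor markers averaged 7.40, 8.39 and 7.37, with 7 that rose and 0 that fell at 14 against 6 months and 10 that fell and 0 that rose at 18 against 14 months, while the division genes had their lowest means at 14 months. The 6 neutrophil precursor markers averaged 10.75, 10.03 and 10.18, and the 8 mature neutrophil markers 12.23, 12.15 and 11.68. The 9 adipocyte markers averaged 7.10, 6.84 and 6.52, and 4 of them fell and 0 rose at 18 against 14 months. At 14 against 6 months 5 of 8 macrophage markers (median 0.70) and 2 of 7 T and NK cell markers (0.47) rose, and 3 of 5 endothelial (-0.93), 3 of 7 fibroblast (-0.52) and 1 of 4 megakaryocyte markers (-0.91) fell. At 18 against 14 months 2 of 8 macrophage (-0.31) and 1 of 5 endothelial markers (-0.20) fell. The part of these cells in the age changes of the division genes was not tested.

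**Figure D5:**
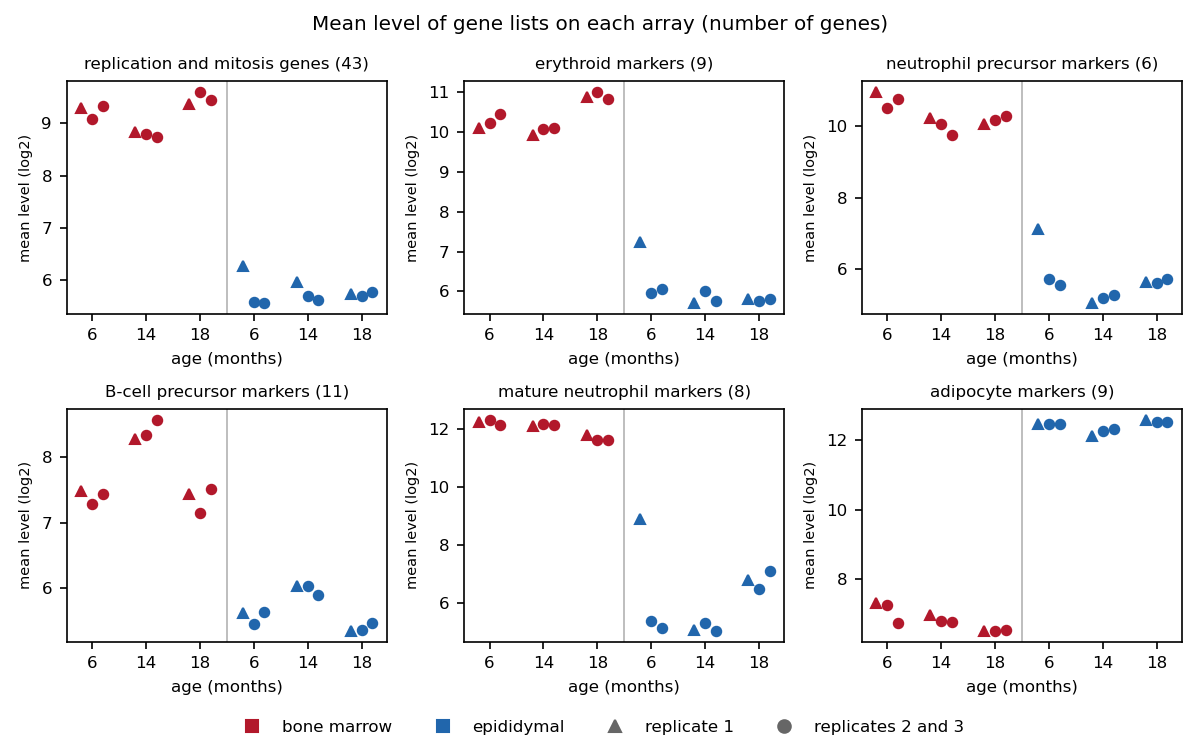
Mean level (log2) of the 43 replication and mitosis genes and of 5 lists of cell type markers on each array, by age (months) and depot; triangles are the first replicates. In bone marrow the division genes and the erythroid markers are lowest at 14 months and highest at 18 months, with erythroid means of 10.26, 10.02 and 10.91 at 6, 14 and 18 months, and the first 6-month epididymal array lies above its group in the blood cell lists other than the B-cell list.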

How the data were processed

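RNA of 18 pooled preparations was hybridized to whole-transcript mouse gene arrays, 1 array each. Per the labels and the study's methods, the authors made the deposited log2 values with GCRMA and quantile normalization in Partek. One legend of the study names RMA in place of GCRMA. The genome build of the array annotation is not given in the sources used here. The values were used as deposited, ran from 1.90 to 14.64, and had array medians from 5.33 to 5.65. The number of arrays, 3 in each group, limits the precision.

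Probe sets were named from the platform annotation. The 23410 probe sets with a gene name were fitted with limma 3.58.1 (R 4.3.3, lmFit and eBayes) on 6 group means, with Benjamini-Hochberg adjustment over all of them. A depot difference was called at an adjusted p under 0.05 and at least 2-fold, an age change or a difference of age changes at an adjusted p under 0.05. A gene was read from the probe set that names it alone with the highest mean. The fit was run on simulated data in which each probe set had the same spread in all groups. It cannot show how the fit behaves where the spreads of groups differ. Motifs were searched with Python 3.11.15.

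The members and the lists were chosen with earlier results of these data known. All members could be named, and each comparison gives values for the 4 largest called rises and falls. Of the wider lists the highest and the lowest gene of a comparison were named, and Gata1, Tfrc and Lep, and the 6 promoters printed, were named after their values were seen. So were the single markers given for epididymal adipocytes at 14 against 6 and at 18 against 14 months, and the stem and progenitor and macrophage markers given between depots. The test of the difference between depots at 18 against 14 months, and the omission of the first replicate of both 6-month groups together, were added after the data were seen. Other scalings, filters, fits, thresholds and the omission of each array were tried. Nothing in the labels pairs same-numbered replicates.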

Additional observations from a re-analysis of the deposited data

Results flagged for a closer look

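The age change differed between bone marrow and epididymal adipocytes for the genes below, by a test of that difference itself (limma, bone marrow change minus epididymal change, log2). At 14 against 6 months the difference was -1.11 for Cdk1 (adjusted p = 0.0447), -0.66 for Kif2c (adjusted p = 0.0386) and -0.78 for Birc5 (adjusted p = 0.00891). These genes were 6.98% of the 43, near the 6.53% of all probe sets that passed in that direction. At 18 against 6 months the difference was 0.82 for Cdt1 (adjusted p = 0.0363), and this 1 gene was 2.33% of the 43, beside 3.49% of all probe sets.

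At 18 against 14 months, a comparison added after the data were seen, the difference among genes of replication and nucleotide supply was 0.96 for Mcm2, 1.34 for Mcm3, 1.48 for Mcm6, 1.26 for Cdc6, 0.75 for Cdt1 and 0.84 for Rrm1, with adjusted p from 0.00265 (Mcm2) to 0.0365 (Cdc6). Among genes of mitosis it was 1.37 for Cdk1, 0.90 for Ttk, 1.16 for Cenpa, 0.90 for Cenpf, 1.12 for Kif23, 1.22 for Kif2c, 1.35 for Prc1 and 0.75 for Birc5, with adjusted p from 3.09e-04 (Kif2c) to 0.0470 (Prc1). These 14 genes were 32.6% of the 43, beside 7.74% of all probe sets. Under every omission of 1 array, 8 of these 14 passed (Mcm2, Mcm3, Mcm6, Cdk1, Cenpf, Kif23, Kif2c and Birc5), as did 1 of the 3 at 14 against 6 months (Birc5) and 0 of the 1 at 18 against 6 months. Their causes were not tested.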

How the results depend on the processing

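Between depots, 41 to 43 of the 43 genes were higher in bone marrow under all alternatives tried (41 at 6 months under the ribosomal scaling), and no single gene that was called reversed its direction. The counts with age depended more on the processing, and the cause was not tested. The share of all probe sets that passed under each alternative was not counted.

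In bone marrow at 14 against 6 months (12 calls), 1 gene passed in the fit of the compared groups alone, 6 with array weights, 4 at an adjusted p under 0.01 and 2 with a 2-fold limit. At 18 against 6 months (6 calls) these counts were 0, 1, 1 and 1, with 3 without variance moderation and 3 with all probe sets. At 18 against 14 months (23 calls) 38 passed in the fit of the compared groups, 11 at an adjusted p under 0.01, 2 with a 2-fold limit and 37 without the first replicates of both 6-month groups (chosen after seeing the data).

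In epididymal adipocytes at 14 against 6 months (1 call), 5 passed with median centring, 5 with ribosomal protein genes set equal, 5 with repeated quantile normalization, 5 with array weights (3 rises, 2 falls, a turned balance), 3 with probe sets above the median only, 0 with a 2-fold limit and 9 without both first 6-month replicates (8 rises, 1 fall, a turned balance). At 18 against 6 months (3 calls), 1 passed with the ribosomal scaling (a fall, turned), 8 with array weights, 0 at an adjusted p under 0.01, 0 with a 2-fold limit and 8 without both first 6-month replicates. Between 14 and 18 months (6 calls), 12 passed in the fit of the compared groups (5 rises, 7 falls, turned), 14 with array weights (5 rises, 9 falls, turned), 0 with a 2-fold limit and 12 without both replicates (5 rises, 7 falls, turned).

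The difference of the age changes at 14 against 6 months (3 calls) gave 1 with median centring, 1 with the ribosomal scaling (a rise, turned), 1 in the fit of the compared groups, 1 without variance moderation, 1 with all probe sets, 5 with probe sets above the median only, 1 at an adjusted p under 0.01 and 15 without both first 6-month replicates. At 18 against 6 months (1 call) it gave 8 with the ribosomal scaling, 2 with the replicate block and 0 with repeated quantile normalization, the compared groups, no variance moderation, all probe sets, an adjusted p under 0.01 or without both replicates. For 18 and 14 months (14 calls) it gave 9 with repeated quantile normalization, 25 in the compared groups, 9 without variance moderation, 22 with array weights, 7 at an adjusted p under 0.01 and 24 without both replicates.

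Leaving out 1 array gave 42 to 42 calls between depots over the ages, 42 to 43 at 6 months, 42 at 14 and at 18 months, 6 to 15, 1 to 10 and 13 to 27 calls in bone marrow (14 against 6, 18 against 6, 18 against 14 months), 1 to 6, 0 to 6 and 5 to 10 in epididymal adipocytes, and 1 to 13, 0 to 9 and 9 to 19 for the differences between depots. The balance of rises and falls turned in epididymal adipocytes without the first 6-month epididymal array at 14 months (6 calls), and at 18 against 6 months without the first 6-month bone marrow array (5 calls) or either of the other 6-month epididymal arrays (1 call each).

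Same-numbered replicates of the depots had correlations of -0.136 to 0.153 over 9 pairs, 1 of them over 0.1. Different-numbered replicates of the same age had correlations of -0.160 to 0.146. With 3 arrays in each group and different cells in each depot, these values cannot decide whether the numbers pair the samples. With the replicate block the counts were 42 between depots, 14, 5 and 25 in bone marrow, 1, 4 and 5 in epididymal adipocytes and 3, 2 and 16 for the differences. Signal near background limits the epididymal levels.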
